A study of Mus musculus with 9 samples.

Results

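The 10 genes described here are the 5 subunits of the transcription factor NF-kappaB (Rela, Nfkb1, Rel, Nfkb2 and Relb) and 5 genes that NF-kappaB switches on and whose products feed back on the pathway (Nfkbia, Tnfaip3, Nfkbiz, Nfkbie and Birc3). They were taken by symbol from a table of 55276 genes, and all 10 passed the filter on low counts that left 17672 genes to test. RNA was sequenced from PPTR cells, a mouse intrahepatic cholangiocarcinoma line grown in 2D culture with serum and derived from liver cancer organoids of mice that carried Prom1CreERT2, Rosa-ZsGreen and floxed alleles, in which a tamoxifen-inducible Cre expressed from the Prom1 gene removes the floxed alleles. Conditions compared, with 3 libraries each, were control cells (WT in the labels, Vcam1-ctrl below) and the Vcam1 knockout lines KO1 and KO2 (Vcam1-KO1 and Vcam1-KO2), each a single-cell clone made with CRISPR/Cas9 and 1 guide RNA. All 9 libraries share this background. The libraries of a condition were collected at different passages, so p-values measure the spread between passages of 1 culture or clone, and in each comparison with control the loss of Vcam1 cannot be told apart from the identity of the clone.

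NF-kappaB proteins act as dimers. In the canonical branch, dimers of RELA or REL with p50, the processed product of Nfkb1, are held in the cytoplasm by IkappaB proteins until the IKK kinase complex marks these for degradation. In the non-canonical branch, the kinase NIK (Map3k14) drives processing of the Nfkb2 product p100 to p52, which pairs with RELB. Active NF-kappaB transcribes its own inhibitors, among them Nfkbia (IkappaB-alpha), Nfkbie (IkappaB-epsilon) and Tnfaip3 (the ubiquitin-editing enzyme A20), so that their mRNA rises within a short time of a stimulus and falls again when it ends. Vcam1, the adhesion molecule removed here, is itself a known target of the pathway.

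The promoters of the feedback loop are shown because the rapid feedback genes among them varied together between libraries. RefSeq (GRCm38.p6) listed 10 promoters for 7 of the 10 genes, each 300 bases long from 250 before to 50 after an annotated start, and Nfkb1, Relb and Nfkbiz had no entry. The 10-base kappaB consensus, searched on both strands, matched anywhere in a 300-base window in 5 of these 7 genes (71.4%). The same count gave 5.14% of all 27025 genes with a promoter listed. Each of the 5 had a match upstream of a start. Because the members were picked as genes of this pathway, the contrast of shares is no support for any result here. Birc3 and Rela had no match in their windows. The lines below run 5′ to 3′ on the strand of the gene, from 130 to 2 bases before its start, with matches in capitals.
Nfkbia: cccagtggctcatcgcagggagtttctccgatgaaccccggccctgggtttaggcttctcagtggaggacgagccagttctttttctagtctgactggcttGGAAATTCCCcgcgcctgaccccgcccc
Tnfaip3: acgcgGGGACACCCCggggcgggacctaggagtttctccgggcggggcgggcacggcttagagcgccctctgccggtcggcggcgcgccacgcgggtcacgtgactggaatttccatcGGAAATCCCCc
Nfkbie: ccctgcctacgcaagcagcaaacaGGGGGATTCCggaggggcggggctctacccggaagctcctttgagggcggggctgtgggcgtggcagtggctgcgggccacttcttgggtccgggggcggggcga
Rel: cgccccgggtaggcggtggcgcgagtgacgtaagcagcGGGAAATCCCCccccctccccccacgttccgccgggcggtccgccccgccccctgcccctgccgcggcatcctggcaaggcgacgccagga
The stretches lie at chr12:55492649-55492777 on the minus strand for Nfkbia, chr10:19015412-19015540 on the minus strand for Tnfaip3, chr17:45555570-45555698 on the plus strand for Nfkbie and chr11:23770971-23771099 on the minus strand for Rel. None of the 4 overlapped an exon of the GENCODE annotation of the same build, and that of Tnfaip3 lay in an intron of a longer Tnfaip3 transcript. Nfkbia held 1 match, 29 bases before its start, and Tnfaip3 held 2, at 125 and 12 bases. The match of Nfkbie began 106 bases before its start, and the 2 of Rel, at 92 and 91 bases, overlapped each other. For Nfkb2, whose window lies inside annotated exons, only the 30 bases around the first site are given (chr19:46304688-46304717, plus strand).
Nfkb2: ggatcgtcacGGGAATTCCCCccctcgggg
This run of capitals holds 2 overlapping matches, at 39 and 38 bases before the start, and a further match, GGGGCTTTCC, began 11 bases before it. At another listed Nfkb2 promoter, not printed, GGAATGTCCC and GGGACTTTCC began 236 and 225 bases before the start. A match describes the letters of these windows and is no evidence that a factor was bound there.

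The libraries held between 53415907 and 125223073 estimated counts. Levels are in CPM, that is, counts scaled to a common library size after TMM normalisation. In the control libraries Vcam1 stood at 248, 221 and 329 CPM, against 92.4 to 128 CPM in Vcam1-KO1 and 83.0 to 119 CPM in Vcam1-KO2. The transcript count was thus lower in all 6 clone libraries but was not lost (log2 fold change -1.36 ± 0.17 SE, adjusted p = 0.00021). The study reported loss of Vcam1 expression in both clones by quantitative RT-PCR and flow cytometry. A count of mRNA per gene does not measure the protein. Here and below, unless another tool is named, adjusted p-values come from the quasi-likelihood test of edgeR after Benjamini-Hochberg adjustment over all genes tested. Of the biliary markers, Krt19 ran from 2129 to 2406 CPM in control and from 0.0160 to 0.226 CPM in the clones, and Krt7, Epcam and Cdh1 were at most at 1.61 CPM in any clone library. Over all 8 biliary markers, 7 exceeded 1 CPM in control, 4 in Vcam1-KO1 and 3 in Vcam1-KO2, with summed levels of 4999 to 6213, 10620 to 11080 and 7634 to 11080 CPM. The summed level of 5 fibroblast markers was 150 to 311 CPM in control, 8486 to 10230 CPM in Vcam1-KO1 and 4655 to 5605 CPM in Vcam1-KO2. Most of it in the clones was Col1a1, with means of 8530 and 4735 CPM. Pdgfra, Pdgfrb and Acta2 were also higher in both clones. Dcn was not, with means of 74.6 CPM in control, 4.34 CPM in Vcam1-KO1 (log2 -4.11 ± 0.58 SE, adjusted p = 0.000222) and 92.0 CPM in Vcam1-KO2 (log2 0.30 ± 0.50 SE, adjusted p = 0.645). Of the hepatocyte markers, whose 5 genes summed to 246 to 427 CPM in control, 4.23 to 7.47 CPM in Vcam1-KO1 and 9.78 to 11.6 CPM in Vcam1-KO2, Hnf4a stood at 207 to 264 CPM in control and had 0 counts in all 6 clone libraries. Afp went the other way, from at most 0.166 CPM in control to 1.21 to 4.97 CPM in Vcam1-KO1 (log2 5.10 ± 0.58 SE, adjusted p = 5.82e-05). In Vcam1-KO2 it had 9.30 to 11.4 CPM, most of the sum there (log2 6.75 ± 0.61 SE, adjusted p = 1.61e-05). The 7 blood cell markers summed to 4.10 to 8.27, 8.28 to 10.5 and 6.52 to 9.26 CPM. Among them Ptprc, Adgre1 and Cd3e stayed under 0.45 CPM in all 9 libraries and Cd68 ran from 3.52 to 8.80 CPM, while Lyz2 was higher in Vcam1-KO1, at 3.66 to 4.59 CPM against 0.0759 to 0.148 CPM in control (log2 5.16 ± 0.50 SE, adjusted p = 2.01e-05). These markers moved with the comparison of each clone with control, and their part in the results below was not tested. In bulk RNA, fewer cells of a type and less RNA per cell cannot be told apart.

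Per kilobase of the longest coding transcript, Nfkbia was the most abundant of the 10 mRNAs in the mean of every condition and Rel the least. In control cells the mean level of Nfkbia was 191 ± 149 CPM per kb (SD, n = 3), followed by Nfkb2 at 90.1 ± 10.4, Rela at 55.9 ± 6.25, Tnfaip3 at 51.2 ± 39.6 and Nfkbiz at 49.8 ± 33.5 CPM per kb. Relb stood at 23.9 ± 1.45, Nfkb1 at 20.4 ± 1.58, Nfkbie at 14.7 ± 1.997, Birc3 at 7.83 ± 0.518 and Rel at 2.36 ± 1.09 CPM per kb. The ranges of Nfkbia, Tnfaip3 and Nfkbiz were so wide that their place in this order is not set beyond the spread. Nfkb2 lay above Rela, and the 5 genes from Relb down followed each other, in ranges that did not overlap. In Vcam1-KO1 the mean of Nfkb2 fell to 27.9 ± 5.42 CPM per kb, under Rela at 56.5 ± 7.82 and Nfkbiz at 60.6 ± 44.3 CPM per kb. In Vcam1-KO2, Rela at 72.3 ± 5.33 and Nfkb2 at 71.6 ± 6.43 CPM per kb had overlapping ranges.

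Nfkb2 and Relb, the subunits of the non-canonical dimer, carried the clearest difference of Vcam1-KO1. Nfkb2 (chr19:46304320-46312385, GRCm38, plus strand, 22 exons in its longest coding transcript), the p100 and p52 gene, measured 367, 372 and 300.2 CPM in the control libraries, 83.9, 114 and 124 CPM in Vcam1-KO1, and 281, 297 and 248 CPM in Vcam1-KO2. All 3 Vcam1-KO1 libraries were below both other conditions, and the 3 Vcam1-KO2 libraries were just below control without overlap. Nfkb2 was 3.23-fold lower in Vcam1-KO1 than in control (log2 fold change -1.69 ± 0.17 SE, adjusted p = 2.31e-05). In Vcam1-KO2 its difference from control was -0.33 ± 0.16 SE on the log2 scale (95% confidence interval -0.70 to 0.03) and did not pass the test (adjusted p = 0.117).

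Relb (chr7:19606217-19629438, minus strand), which pairs with p52, had 56.4, 51.6 and 50.4 CPM in control, 13.1, 17.2 and 21.6 CPM in Vcam1-KO1, and 42.4, 43.5 and 34.2 CPM in Vcam1-KO2. The order of the conditions was that of Nfkb2, again without overlap. It was 3.05-fold lower in Vcam1-KO1 than in control (log2 fold change -1.61 ± 0.18 SE, adjusted p = 5.45e-05), while the difference in Vcam1-KO2 was -0.40 ± 0.18 SE (adjusted p = 0.0867). Both subunits differed between the clones: Nfkb2 was 2.57-fold (log2 -1.36 ± 0.17 SE, adjusted p = 0.000304) and Relb 2.31-fold (log2 -1.21 ± 0.18 SE, adjusted p = 0.000896) lower in Vcam1-KO1 than in Vcam1-KO2. NIK, the kinase that acts upstream of them, had mRNA levels of 33.8 ± 5.23, 33.5 ± 7.12 and 44.2 ± 5.98 CPM (SD, n = 3) in the same order of conditions, and its log2 difference from control was -0.01 ± 0.18 SE in Vcam1-KO1 (adjusted p = 0.958) and 0.39 ± 0.18 SE in Vcam1-KO2 (adjusted p = 0.102).

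Among the canonical subunits, Rela and Nfkb1 stayed within a narrow range. Rela (chr19:5637483-5648130, plus strand), the main activating subunit, had 160, 132 and 163 CPM in control, 130, 158 and 172 CPM in Vcam1-KO1, and 206, 203 and 180 CPM in Vcam1-KO2. Vcam1-KO1 spanned the range of control, and Vcam1-KO2 lay above it in all 3 libraries. The increase in Vcam1-KO2 was 1.29-fold (log2 0.37 ± 0.14 SE, adjusted p = 0.0446), but it missed the threshold with DESeq2 (adjusted p = 0.0657) and upper-quartile factors (adjusted p = 0.0868), and also without control replicate 2 (log2 0.26, adjusted p = 0.147). Against control, Vcam1-KO1 gave a log2 difference of 0.01 ± 0.14 SE (95% confidence interval -0.29 to 0.32, adjusted p = 0.934).

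Nfkb1 (chr3:135584655-135691547, minus strand), the p105 and p50 gene, had 84.3, 90.4 and 77.3 CPM in control, 77.6, 81.5 and 68.6 CPM in Vcam1-KO1, and 94.96, 101 and 113 CPM in Vcam1-KO2. The Vcam1-KO2 libraries were the highest 3 of the 9. The log2 difference of Vcam1-KO2 from control was 0.29 ± 0.11 SE (adjusted p = 0.0509), that of Vcam1-KO1 was -0.15 ± 0.11 SE (adjusted p = 0.286), and Vcam1-KO1 was 1.36-fold lower than Vcam1-KO2 (log2 -0.44 ± 0.11 SE, adjusted p = 0.0126). Rel (chr11:23736847-23770970, minus strand), the subunit best known from lymphocytes, was low throughout, with 24.4, 8.64 and 19.7 CPM in control, 7.91, 12.4 and 22.6 CPM in Vcam1-KO1, and 18.6, 10.97 and 9.50 CPM in Vcam1-KO2. Its conditions overlapped, and neither clone differed from control by the test (log2 -0.30 ± 0.46 SE, adjusted p = 0.596, and -0.44 ± 0.46 SE, adjusted p = 0.458).

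Expressed as a share of the summed level per kilobase of the 5 subunits, the balance between Nfkb2 and Rela differed between all 3 conditions. Nfkb2 made up 46.7 ± 3.82% (SD, n = 3) of subunit mRNA in control, 24.7 ± 1.60% in Vcam1-KO1 and 37.9 ± 1.08% in Vcam1-KO2. The share of Rela ran the other way, at 29.1 ± 3.80%, 50.1 ± 0.533% and 38.3 ± 0.791%. Relb accounted for 12.4 ± 0.205%, 6.90 ± 0.836% and 9.58 ± 0.620%, and Nfkb1 for 10.6 ± 0.735%, 16.7 ± 3.20% and 13.3 ± 2.04%. The ranges of Nfkb2, Rela and Relb did not overlap between any of the 3 conditions. Shares of a sum are tied to each other, and they were not tested.

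**Figure D1:**
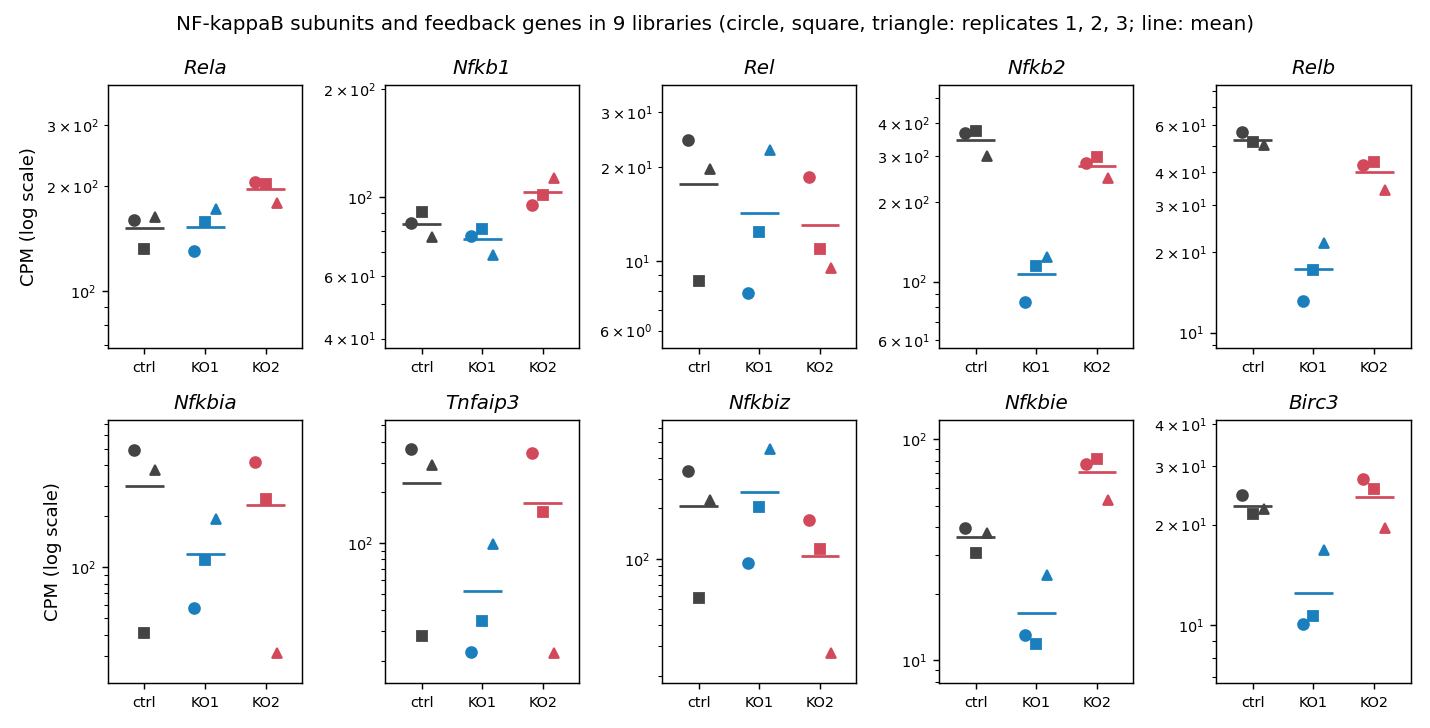
Level of each gene in the 9 libraries, in CPM on a log axis, with replicates 1, 2 and 3 as circle, square and triangle and the mean as a line. Nfkb2 and Relb are lowest in all 3 Vcam1-KO1 libraries, while Nfkbia, Tnfaip3 and Nfkbiz have 1 low library in control (replicate 2) and 1 in Vcam1-KO2 (replicate 3).

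Nfkbie was the 1 member called in opposite directions in the 2 clones against control, as were 341 of all 17672 genes tested. Nfkbie (chr17:45555703-45563169, plus strand), which encodes IkappaB-epsilon and acts as a slower feedback inhibitor of RELA and REL dimers, measured 39.7, 30.4 and 37.7 CPM in control, 13.0, 11.8 and 24.4 CPM in Vcam1-KO1, and 77.5, 81.8 and 53.1 CPM in Vcam1-KO2. No library of 1 condition reached the range of another. The gene was 2.19-fold lower in Vcam1-KO1 (log2 -1.13 ± 0.28 SE, adjusted p = 0.00633) and 1.97-fold higher in Vcam1-KO2 (log2 0.98 ± 0.28 SE, adjusted p = 0.015), and the clones differed 4.31-fold (log2 -2.11 ± 0.29 SE, adjusted p = 0.000564). The rise in Vcam1-KO2 kept its direction but missed the threshold when control replicate 2 (log2 0.84) or Vcam1-KO2 replicate 2 (log2 0.86) was left out, with an adjusted p of 0.0532 in both cases.

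Birc3 (chr9:7848699-7873186, minus strand), which encodes the ubiquitin ligase cIAP2 that acts at TNF receptors and in the turnover of NIK, had 24.5, 21.6 and 22.3 CPM in control, 10.1, 10.6 and 16.9 CPM in Vcam1-KO1, and 27.4, 25.6 and 19.5 CPM in Vcam1-KO2. Vcam1-KO1 was below all other libraries, and Vcam1-KO2 overlapped control. The decrease in Vcam1-KO1 was 1.82-fold against control (log2 -0.86 ± 0.21 SE, adjusted p = 0.00636) and 1.93-fold against Vcam1-KO2 (log2 -0.95 ± 0.21 SE, adjusted p = 0.00734). Vcam1-KO2 differed from control by 0.09 ± 0.21 SE on the log2 scale (95% confidence interval -0.39 to 0.56, adjusted p = 0.761).

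In all, 4 of the 10 genes were lower and 0 higher in Vcam1-KO1 than in control (also 0 higher at an unadjusted p under 0.05 with edgeR, limma-voom or DESeq2), where 30% of all genes tested were called lower and 29.9% higher. In Vcam1-KO2, 2 of 10 were higher, against 25.3% of all genes, and 0 lower, against 26.1%. At an unadjusted p under 0.05, 1 member was lower there with edgeR or limma-voom and 2 with DESeq2, which called 0 lower after adjustment, as limma-voom did. Between the clones, 5 of 10 were lower and 0 higher in Vcam1-KO1 (0 higher at an unadjusted p under 0.05 with each of the 3 tools), against 18.5% and 20.2% of all genes. The libraries did not overlap for 4 of 10 members in Vcam1-KO1 against control (66% of all genes), for 5 of 10 in Vcam1-KO2 against control (62.1%) and for 6 of 10 between the clones (54.9%). Both comparisons with control share the control libraries. The 4 calls in Vcam1-KO1 against control held in every alternative run, and so did those between the clones except for Nfkb1, which missed the threshold (log2 -0.40, adjusted p = 0.0755) with 1 library left out per condition, those named with the immediate-early genes below. Those in Vcam1-KO2 against control ranged from 0 to 4 genes when 1 library was left out.

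**Figure D2:**
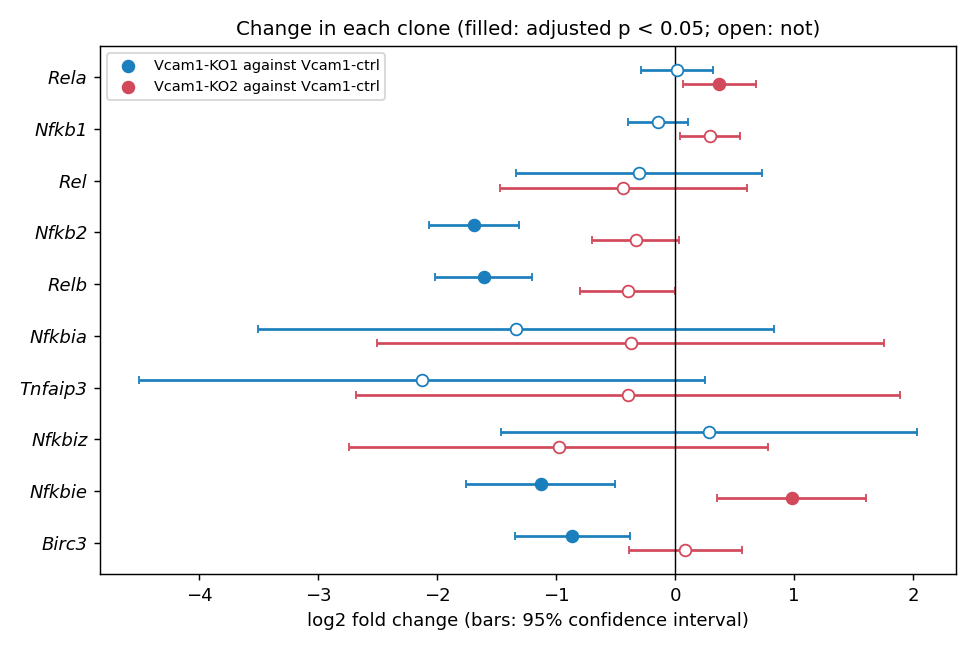
Log2 fold change of each gene against control in Vcam1-KO1 (blue) and Vcam1-KO2 (red), with the 95% confidence interval as a bar and filled points where the adjusted p was under 0.05. Nfkb2, Relb, Nfkbie and Birc3 are filled on the left for Vcam1-KO1, Rela and Nfkbie on the right for Vcam1-KO2, and the intervals of Nfkbia, Tnfaip3 and Nfkbiz are the widest.

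Taking the 6 clone libraries against the 3 control libraries, none of the 10 genes passed the test with edgeR, against 21.7% of all genes called higher and 21.2% lower. At an unadjusted p under 0.05, 0 were higher and 1 lower with edgeR, and 0 higher and 2 lower with limma-voom or DESeq2, and each of those tools called 1 gene, Relb, after adjustment. Libraries did not overlap for 2 of 10 members, Nfkb2 and Relb, compared with 44.2% of all genes. The 6 clone libraries are passages of 2 clones, so their spread includes the gap between the clones. Nfkb2 averaged 191 ± 94.3 CPM (SD, n = 6) in the clones and 346 ± 40.2 CPM (SD, n = 3) in control, a log2 difference of -0.86 ± 0.39 SE (adjusted p = 0.107). Relb averaged 28.7 ± 13.1 CPM in the clones and 52.8 ± 3.20 CPM in control, a difference of -0.88 ± 0.36 SE (adjusted p = 0.076). When the contrasts of the 2 clones were averaged within the 3-condition fit, where the gap between clones does not enter the spread, both passed (log2 -1.01, adjusted p = 0.000164, and -1.004, adjusted p = 0.000299). No member was called in the same direction in both clones, against 18.3% of all genes called higher and 19.4% called lower in both.

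Nfkbia, Tnfaip3 and Nfkbiz, the rapid feedback genes, varied widely between libraries of 1 condition, and none of them passed the test in either clone. Nfkbia (chr12:55489410-55492647, minus strand), the inhibitor resynthesized in each round of NF-kappaB activity, had 494, 40.7 and 372 CPM in control, 57.4, 110 and 192 CPM in Vcam1-KO1, and 417, 252 and 31.2 CPM in Vcam1-KO2. Control replicate 2 and Vcam1-KO2 replicate 3 were the lowest of the 9 libraries, and the conditions overlapped. Within control the highest library was 12.1-fold above the lowest, and within Vcam1-KO2 13.4-fold. The log2 difference from control was -1.34 ± 0.96 SE in Vcam1-KO1 (95% confidence interval -3.50 to 0.83, adjusted p = 0.258) and -0.37 ± 0.95 SE in Vcam1-KO2 (-2.50 to 1.76, adjusted p = 0.769).

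Tnfaip3 (chr10:19000910-19015657, minus strand), which encodes A20, had 361, 28.1 and 290 CPM in control, 22.4, 34.2 and 98.7 CPM in Vcam1-KO1, and 341, 153 and 22.1 CPM in Vcam1-KO2. The same 2 libraries, control replicate 2 and Vcam1-KO2 replicate 3, were far below the others of their condition. The log2 difference from control was -2.13 ± 1.06 SE in Vcam1-KO1 (95% confidence interval -4.51 to 0.25, adjusted p = 0.109) and -0.40 ± 1.02 SE in Vcam1-KO2 (-2.68 to 1.89, adjusted p = 0.77). Nfkbiz (chr16:55811375-55838899, minus strand), the nuclear IkappaB-zeta that works with NF-kappaB on secondary targets, had 332, 58.5 and 224 CPM in control, 94.3, 204 and 450.0 CPM in Vcam1-KO1, and 171, 114 and 27.3 CPM in Vcam1-KO2. It shared the low libraries of the other 2 genes, and neither clone passed the test (log2 0.28 ± 0.78 SE, adjusted p = 0.774, and -0.98 ± 0.78 SE, adjusted p = 0.326).

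The spread of these genes was set against that of all 10877 genes with a mean of at least 5 CPM, as the SD of log2 CPM around the condition mean over 9 libraries. It was 1.78 for Tnfaip3, 1.69 for Nfkbia and 1.28 for Nfkbiz, above 99.8%, 99.7% and 99.6% of genes, against a median of 0.20. Rel, with an SD of 0.70, was above 95.4% of genes. Nfkbie at 0.40 and Birc3 at 0.28 lay above 85.4% and 72.6%, and Relb at 0.24 and Nfkb2 at 0.21 were nearer the middle of the distribution. Rela at 0.17 and Nfkb1 at 0.12 were steadier than the median gene.

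**Figure D3:**
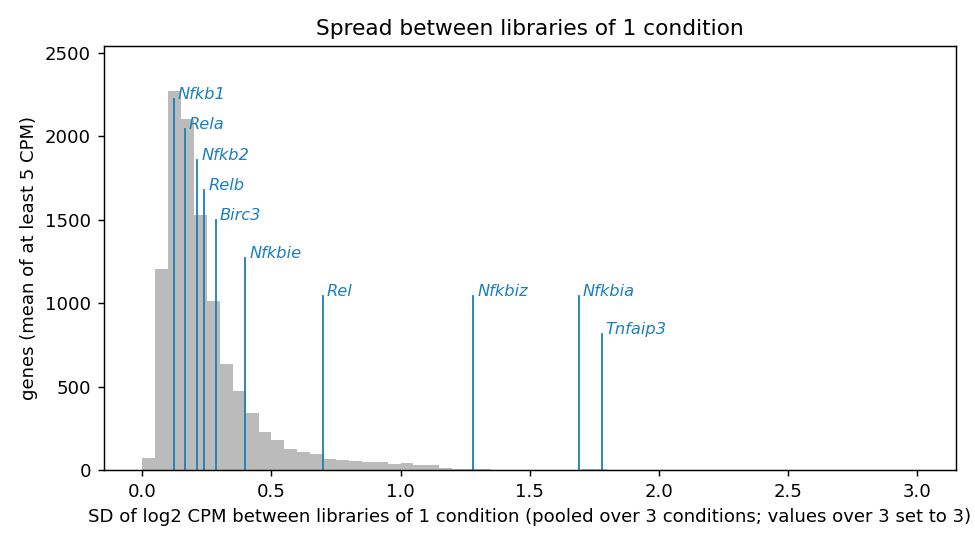
Number of genes (grey bars) by the SD of log2 CPM between libraries of the same condition, pooled over the 3 conditions, with the 10 genes marked by blue lines. Nfkb1, Rela, Nfkb2 and Relb lie in the main body of the distribution, and Nfkbiz, Nfkbia and Tnfaip3 in its far tail.

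The 10 immediate-early genes, a list picked after these values were seen (Fos, Fosb, Egr1, Jun, Junb, Ier2, Atf3, Dusp1, Zfp36 and Klf6, which respond fast to serum or stress), moved with the rapid feedback genes and with most other members. Their mean was 8.96, 7.19 and 9.28 log2 CPM in control, 6.91, 7.90 and 9.36 in Vcam1-KO1, and 7.84, 7.52 and 4.79 in Vcam1-KO2. Control replicate 2 was the lowest library of its condition for 9 of the 10 genes, and Vcam1-KO1 replicate 1 and Vcam1-KO2 replicate 3 for 10 of 10. Nfkbia, Tnfaip3, Nfkbiz, Rel, Rela and Birc3 were also lowest of their condition in these 3 libraries. No share over all genes is given for this pattern or for the correlations that follow, so neither is read as particular to the members. Around the condition means of log2 CPM, Pearson r with the immediate-early mean over 9 libraries was 0.94 for Nfkbia, 0.95 for Tnfaip3 and 0.97 for Nfkbiz. It was 0.90 for Rela, 0.84 for Rel, Nfkbie and Birc3, 0.78 for Relb, 0.46 for Nfkb2, -0.88 for Nfkb1 and 0.83 for Vcam1. The proliferation gene Mki67 was lowest in Vcam1-KO1 replicate 3, at 27.7 CPM against 216 and 239 CPM in the other libraries of that clone, and that library had the highest immediate-early mean. The mitochondrial share of counts was 0.834, 0.397 and 0.763% in control, 1.27, 1.43 and 2.12% in Vcam1-KO1, and 1.82, 1.18 and 0.687% in Vcam1-KO2. It was lowest in the same 3 libraries, and higher in all Vcam1-KO1 libraries than in any control library. The part of these differences between libraries in the results above was not tested. Those 3 libraries were then left out, 1 per condition, a setting chosen after seeing the data. The log2 difference of Vcam1-KO1 from control was then -1.53 for Nfkb2, -1.51 for Relb, -1.14 for Nfkbie and -0.82 for Birc3. Nfkbia stood at -1.57 and Tnfaip3 at -2.34. The libraries were chosen by low values that most members followed, which narrows the spread, so passing the test in this setting is no support.

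**Figure D4:**
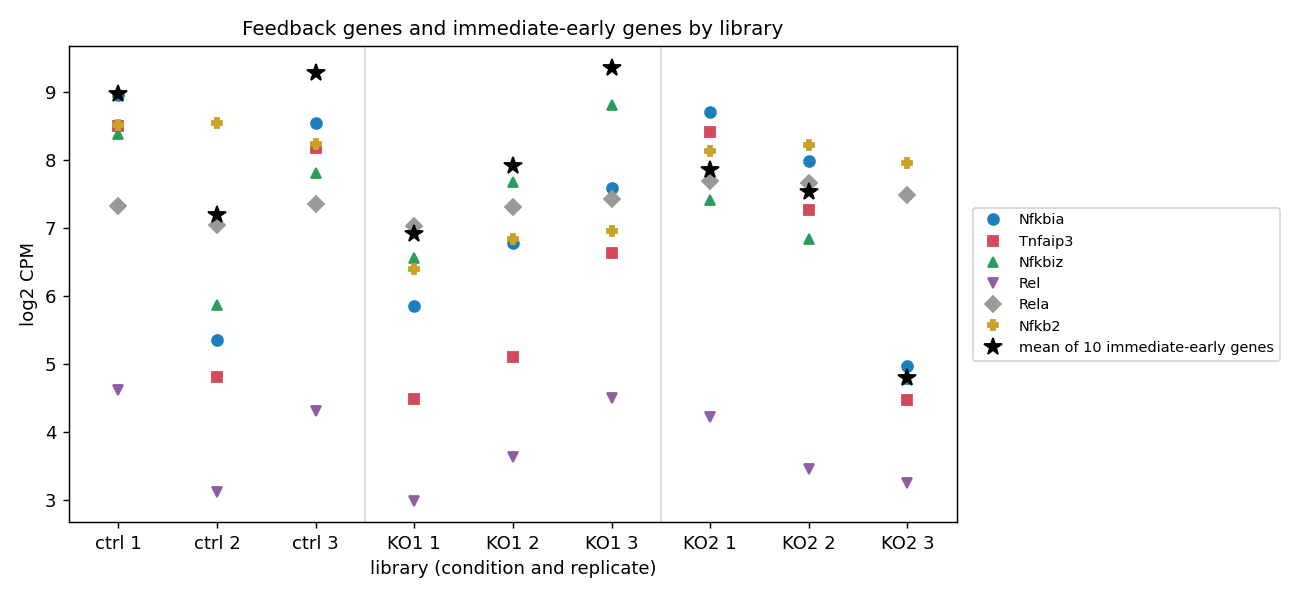
Log2 CPM of 6 members and the mean of the 10 immediate-early genes (stars) in each of the 9 libraries, with grey lines between conditions. Nfkbia, Tnfaip3, Nfkbiz and the stars are low together in control replicate 2 and Vcam1-KO2 replicate 3. Nfkb2 and Rela differ far less between libraries of a condition, though Rela is also lowest of its condition in both of these libraries.

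The other genes of the pathway were grouped in 5 lists by role, 100 genes in all, of which 91 could be tested. In Vcam1-KO1, 21 of the 91 were higher and 39 lower than control, with a median log2 fold change of -0.14 against 0.02 over all genes, of which 29.9% were higher and 30% lower. In Vcam1-KO2, 28 were higher and 26 lower (25.3% and 26.1% of all genes), with a median of 0.02 against 0.00436. Between the clones, 8 were higher and 33 lower in Vcam1-KO1 (20.2% and 18.5% of all genes), with a median of -0.30 against 0.04. With the 6 clone libraries together, 19 were higher and 27 lower than control (21.7% and 21.2% of all genes). The counts of each list below are to be read against these shares, to which several of them are close. The cytokine Il33, named after its values were seen, was called in opposite directions, at 59.1 ± 18.97 CPM (SD, n = 3) in control, 15.4 ± 8.27 CPM in Vcam1-KO1 and 208 ± 53.5 CPM in Vcam1-KO2.

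Of the 7 ligands tested, 1 was higher and 6 lower in Vcam1-KO1, and 2 were higher and 3 lower in Vcam1-KO2. Il18, a cytokine of the interleukin-1 family, rose from 4.36 ± 0.485 CPM in control to 20.4 ± 2.92 CPM in Vcam1-KO1 and 22.9 ± 0.453 CPM in Vcam1-KO2 (clones against control, log2 2.31 ± 0.16 SE, adjusted p = 7.08e-06). Tnfsf11 (RANKL) and Ltb (lymphotoxin beta) fell. Tnfsf11 had 3172, 888 and 679 counts in the control libraries and 0 in 5 of the 6 clone libraries, with 3 counts in the other (adjusted p = 8.49e-06). Ltb had 211 to 382 counts per control library and 1 to 12 per clone library (adjusted p = 7.73e-05).

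Among 28 receptors and adaptors, 7 were higher and 9 lower in Vcam1-KO1, and 12 were higher and 7 lower in Vcam1-KO2. The lipoprotein receptor Tlr2 rose from 10.97 ± 0.855 CPM in control to 61.0 ± 11.1 CPM in Vcam1-KO1 and 66.5 ± 15.4 CPM in Vcam1-KO2 (log2 2.54 ± 0.20 SE, adjusted p = 1.15e-05), and the interleukin-1 receptor Il1r1 rose by 1.66 ± 0.14 SE on the log2 scale (adjusted p = 1.69e-05). The receptors named by the rule as the largest falls were Cd40 and Tnfrsf11a (RANK). Cd40 had 699 to 1475 counts per control library and 2 to 9 per clone library (adjusted p = 1.45e-06), and Tnfrsf11a went from 3.20 ± 0.496 CPM in control to 0.276 ± 0.0810 CPM in Vcam1-KO1 and 0.205 ± 0.0982 CPM in Vcam1-KO2 (adjusted p = 3.85e-05). Ltbr, the receptor of lymphotoxin beta, and Tnfrsf12a, both added after their values were seen, were not called with the 6 clone libraries together. Ltbr had 146 ± 7.64 CPM in control, 133 ± 11.9 CPM in Vcam1-KO1 (log2 -0.14, adjusted p = 0.3) and 114 ± 9.58 CPM in Vcam1-KO2 (log2 -0.36, adjusted p = 0.0193). Tnfrsf12a had 303 ± 30.8, 110 ± 31.4 (log2 -1.47, adjusted p = 0.000188) and 234 ± 20.01 CPM (log2 -0.37, adjusted p = 0.143).

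The 12 kinases gave 2 higher and 4 lower in Vcam1-KO1 and 3 of each in Vcam1-KO2. Ikbkb, the catalytic subunit of the canonical IKK complex, had 60.2 ± 2.74 CPM in control, 49.1 ± 1.94 CPM in Vcam1-KO1 and 41.97 ± 0.747 CPM in Vcam1-KO2, and was lower in the clones (log2 -0.40 ± 0.10 SE, adjusted p = 0.0119). Chuk (IKK-alpha) fell by 0.36 ± 0.13 SE on the log2 scale (adjusted p = 0.0448) and Ikbkg (NEMO) did not pass the test (log2 0.21 ± 0.15 SE, adjusted p = 0.286). Ikbke fell by 0.63 ± 0.16 SE (adjusted p = 0.0103) and Map3k7 (TAK1) by 0.61 ± 0.09 SE (adjusted p = 0.000665), while its partner Tab2 rose by 0.44 ± 0.11 SE (adjusted p = 0.00883) and Map3k8 (TPL2) by 2.53 ± 0.83 SE (adjusted p = 0.0336).

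Of 13 other inhibitors, 4 were higher and 5 lower in each clone. Bcl3, an IkappaB family protein that partners p50 and p52, had 34.7 ± 4.12 CPM in control, 10.8 ± 2.93 CPM in Vcam1-KO1 and 22.2 ± 1.90 CPM in Vcam1-KO2 (clones against control, log2 -1.07 ± 0.33 SE, adjusted p = 0.0259), the order of conditions seen for Nfkb2 and Relb. Nfkbid (IkappaB-NS) had 81 to 1236 counts per control library and 1 to 23 per clone library (adjusted p = 0.00117). Tnip2, which binds A20, rose by 0.75 ± 0.14 SE (adjusted p = 0.00254) and the deubiquitinase Cyld by 0.36 ± 0.10 SE (adjusted p = 0.0158).

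Among 31 targets tested, 7 were higher and 15 lower in Vcam1-KO1 than in control, with a median log2 fold change of -1.08, and 7 were higher and 8 lower in Vcam1-KO2, with a median of 0.17. Between the clones 1 was higher and 14 lower in Vcam1-KO1. The adhesion molecule Icam1 fell from 55.5 ± 14.3 CPM in control to 0.320 ± 0.228 CPM in Vcam1-KO1 and 0.459 ± 0.145 CPM in Vcam1-KO2 (log2 -7.16 ± 0.43 SE, adjusted p = 3.25e-06), and the iron-binding protein gene Lcn2 had 42.8 to 111 CPM in control and at most 1.23 CPM in any clone library (adjusted p = 0.00033). In the other direction, the pentraxin Ptx3 had 1 to 14 counts per control library and 59.9 to 91.0 CPM in the clones (adjusted p = 2.77e-06). The chemokine Ccl7 rose from 10.2 ± 4.38 CPM in control to 53.4 ± 30.7 CPM in Vcam1-KO1 and 372 ± 81.0 CPM in Vcam1-KO2 (log2 4.38 ± 1.06 SE, adjusted p = 0.00864).

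**Figure D5:**
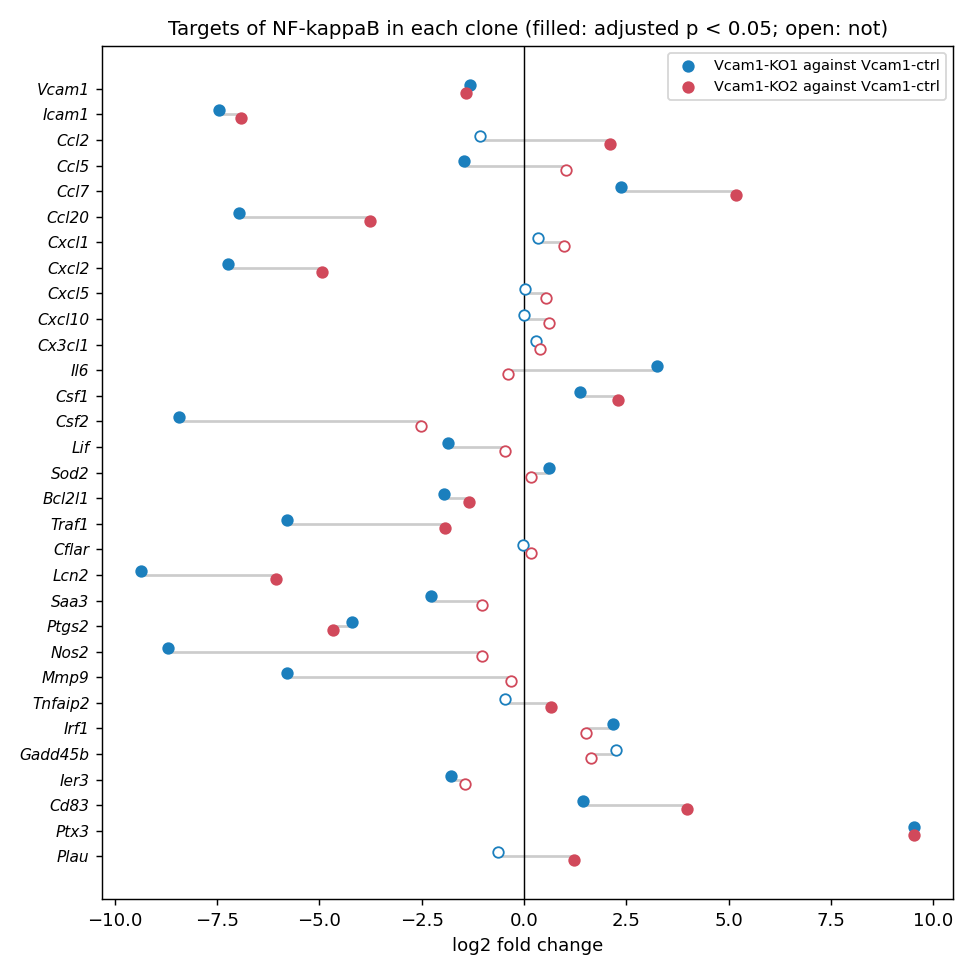
Log2 fold change against control of the 31 targets tested, in Vcam1-KO1 (blue) and Vcam1-KO2 (red), filled where the adjusted p was under 0.05, with a grey line between the clones. Icam1, Lcn2, Cxcl2 and Ccl20 lie far to the left in both clones and Ptx3 far to the right, and the sizes for genes near 0 in a condition depend on the fit. For Cxcl2, control replicate 2 had 1.38 CPM, within the range of Vcam1-KO2 (0 to 2.86 CPM).

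The genes whose log2 CPM followed each member most closely over the 9 libraries were sought among the 10877 genes above. Riok3 was the closest to both Nfkb2 (Pearson r = 0.991) and Relb (r = 0.993). Tnfaip3 was closest to Nfkbia (r = 0.965), Nfkbia to Elk4 (r = 0.980), Nfkbiz to Klf11 (r = 0.977) and Rel to Sik1 (r = 0.973). For Nfkb1 it was Ptma (r = 0.987), for Rela Coro6 (r = 0.937), for Nfkbie Rai14 (r = 0.982) and for Birc3 Gdpd5 (r = 0.983). These values describe 9 libraries that share conditions, and the highest of 10877 correlations is high by selection.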

How the data were processed

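RNA from 9 libraries (3 per condition) was prepared with a stranded mRNA kit and sequenced as paired ends. The deposited values are estimated counts per gene symbol, which the authors obtained with kallisto 0.46.1, run with its strand and bias options on the GENCODE transcripts of GRCm38 (mm10). How transcripts were summed to genes is not given in the sources used here. The values were whole numbers, and the libraries summed to between 53415907 and 125223073, so that 3 counts correspond to 0.0239 to 0.0554 CPM.

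The table of 55276 genes was filtered with filterByExpr, leaving 17672 genes, and fitted with edgeR 4.0.16 (R 4.3.3) by its quasi-likelihood test with TMM factors. A fit with 3 conditions gave each clone against control and the clones against each other, and a fit with 2 groups gave 6 clone libraries against 3 control libraries. P-values were adjusted by Benjamini-Hochberg over all genes tested, with a threshold of 0.05. The SE of a log2 fold change is its size divided by the square root of F, and intervals use the t distribution with the degrees of freedom of the fit. Log2 CPM used a prior count of 2. The procedure was tested on simulated data. Alternatives were limma-voom 3.58.1 (the test of the study), DESeq2 1.42.0, upper-quartile factors, other filters on low counts, fits on the compared libraries only and leaving out each library, or the lowest of several conditions together. GENCODE vM21 gave positions and lengths, and RefSeq the promoters. Replicates of a condition differed by more than counting noise and were each counted as 1 sample. The members and lists were chosen with earlier results of these data known. The text names all members, Vcam1, Chuk, Ikbkb, Ikbkg and Map3k14, and from each role list the 2 largest rises and 2 largest falls of clones against control among called genes with a mean of at least 1 CPM. The names of the floxed genes and 1 marker gene are not reported here.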

Additional observations from a re-analysis of the deposited data

Results flagged for a closer look

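A difference between the 2 clones passed the edgeR quasi-likelihood test for 5 of the 10 genes, all of them lower in Vcam1-KO1. The log2 difference of Vcam1-KO1 from Vcam1-KO2 was -2.11 for Nfkbie, -1.36 for Nfkb2, -1.21 for Relb, -0.95 for Birc3 and -0.44 for Nfkb1. For Nfkbie the clones lay on opposite sides of control, and for Nfkb2 and Relb both lay below it. Each clone is 1 line, so a difference between them cannot be told apart from one between any other pair of clones.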

How the results depend on the processing

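The 4 calls in Vcam1-KO1 against control and those of Nfkb2, Relb, Nfkbie and Birc3 between the clones passed in every alternative, and Nfkb1 between the clones in all but 1 (below). Of the members, 4 to 5 were called in Vcam1-KO1 against control, 0 to 4 in Vcam1-KO2, 5 to 6 between the clones and 0 to 1 in both clones together when 1 library was left out, and of the other pathway genes 52 to 61, 45 to 61, 31 to 41 and 30 to 47. The count in Vcam1-KO2 was 1 with DESeq2, without a filter or with a filter at a mean of 1 CPM, and 4 with only the 6 libraries compared. In both clones together it was 1 with limma-voom, 1 with DESeq2 and 2 with the average of the clones' contrasts. Without control replicate 2 and Vcam1-KO2 replicate 3, added after seeing the data, it was 1 in Vcam1-KO2 and 8 between the clones, but this setting keeps the equally low Vcam1-KO1 replicate 1 and so lowers that clone against the others by construction. With Vcam1-KO1 replicate 1 left out as well, also added, it was 6 in Vcam1-KO1, 1 in Vcam1-KO2, 4 between the clones (without Nfkb1) and 0 together, where 29 pathway genes were called. These libraries were chosen by low values that most members followed, which narrows the spread, so the counts are no check on the main calls.

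Changes of sign came from differences that did not pass the test. In Vcam1-KO1, Rela was at -0.033 with DESeq2, -0.055 without a filter, -0.020 with 6 libraries, -0.12 without those 2 libraries, -0.016 without all 3 and -0.15 to 0.068 with 1 library left out, and Nfkbiz at -0.21 without those 2 and -0.46 to 0.81. With 1 library left out, Nfkbia ran from -1.13 to 0.17, Tnfaip3 from -1.40 to 0.11 and Birc3 from -0.022 to 0.20 in Vcam1-KO2, and Rel from -0.36 to 0.43 between the clones (-0.066 without those 2). In both clones together Nfkbie was at -0.17 with limma-voom and -0.076 with the average of contrasts, Nfkbiz ran from -0.74 to 0.31 and Nfkb1 from -0.019 to 0.16. The cause was not tested. No paired analysis was possible because the columns carry no replicate numbers that link libraries across conditions. Upper-quartile factors moved the median of all genes between the clones to 0.11 (0.04 with TMM). The wide spread of Nfkbia, Tnfaip3 and Nfkbiz over 3 libraries per condition limits what can be seen for these genes, and the effect of depth was not measured.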

Other observations

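Targets outside the naming rule were also picked, after their values were seen. Of these, Mmp9, Traf1, Ccl2 and Il6 differed between the clones, while Csf1 and Cxcl1 are given against control only. The matrix protease Mmp9 had 466 ± 102 CPM (SD, n = 3) in control and 376 ± 34.7 CPM in Vcam1-KO2 but 8.34 ± 2.63 CPM in Vcam1-KO1 (Vcam1-KO1 against Vcam1-KO2, log2 -5.50 ± 0.27 SE, adjusted p = 2.42e-06). Traf1, an adaptor of TNF receptors, had 14.1 ± 5.73 CPM in control, 3.68 ± 0.219 CPM in Vcam1-KO2 and 0.253 ± 0.0882 CPM in Vcam1-KO1 (between the clones, log2 -3.86 ± 0.37 SE, adjusted p = 8e-05). The monocyte chemokine Ccl2 was highest in Vcam1-KO2, at 1253 ± 432 CPM against 137 ± 54.8 CPM in Vcam1-KO1 (log2 -3.19 ± 0.58 SE, adjusted p = 0.00259) and 290.2 ± 182 CPM in control. The macrophage growth factor Csf1 rose in both clones, from 104 ± 29.0 CPM to 269 ± 113 CPM in Vcam1-KO1 (adjusted p = 0.0045) and 510 ± 95.2 CPM in Vcam1-KO2 (adjusted p = 0.000312). Interleukin-6 (Il6) was higher in Vcam1-KO1, at 5.85 ± 4.95 CPM, than in Vcam1-KO2, at 0.469 ± 0.157 CPM (adjusted p = 0.00997). The chemokine Cxcl1 spread like the rapid feedback genes, from 27.3 to 370 CPM within control and from 47.1 to 876 CPM within Vcam1-KO2, and did not pass the test in either clone (log2 0.33 ± 1.04 SE, adjusted p = 0.802, and 0.98 ± 1.05 SE, adjusted p = 0.466). Adjusted p-values are from edgeR.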
